A study of Homo sapiens with 12 samples.

Results

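The lysyl oxidase family was followed through RNA sequencing of 2 triple-negative breast cancer cell lines in which the MEK5 to ERK5 kinase cascade had been targeted or switched on. The 5 family genes LOX, LOXL1, LOXL2, LOXL3 and LOXL4 were taken by name from a table of 32152 genes, and all 5 are among the 13737 protein-coding genes that passed the filter on low values, an RPKM of at least 0.5 in 2 libraries. The lines were MDA-MB-231 and Hs-578T, both established from patients with breast cancer, and each gave 6 libraries, a pair for each of the labels parental, ERK5-ko and MEK5DD. The ERK5-ko cells had been transfected with Cas9 and guides against exons of MAPK7, the gene of ERK5, and MEK5DD stands for MEK5, the kinase upstream of ERK5, in an always-active mutant. The MDA-MB-231 ERK5-ko line was the single clone that survived sorting. Several Hs-578T clones were obtained, and which of them was sequenced is not given in the sources used here.

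Lysyl oxidases are secreted copper enzymes that oxidise lysine side chains in collagens and elastin, after which the chains cross-link and the matrix stiffens. LOX is made as a proenzyme that BMP1 and related proteases cut outside the cell, LOXL1 is known for its part in elastic fibre assembly, and LOXL2, LOXL3 and LOXL4 carry scavenger receptor domains ahead of the shared catalytic domain. LOX and LOXL2 are well known as genes induced by hypoxia, and LOXL2 and LOXL3 have been described as partners of the SNAIL repressor of E-cadherin.

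Among the members tested, LOXL4 in MDA-MB-231 MEK5DD and LOXL1 in Hs-578T ERK5-ko showed the largest changes against parental cells. In MDA-MB-231 cells labelled MEK5DD, LOXL4 RNA fell 8.89-fold, LOXL2 fell 2.17-fold, LOXL1 fell 2.18-fold and LOX rose 1.99-fold. In Hs-578T cells labelled MEK5DD, LOXL3 fell 1.80-fold and LOX rose 1.23-fold. In the libraries labelled ERK5-ko, LOXL1 was the family member that passed the test, lower 1.59-fold in MDA-MB-231 and 4.24-fold in Hs-578T. Folds are on the scale of log2(RPKM + 0.5), where RPKM is the number of reads scaled to gene length and to the library's total, and were tested with limma across 13737 protein-coding genes. A gene passes here at a Benjamini-Hochberg adjusted p under 0.05. In bulk RNA, fewer cells with a transcript and less of it in each cell cannot be told apart.

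The libraries held 20248162 to 27791195 reads, and replicates of every group differed by more than counting noise, with chi-square per degree of freedom from 2.98 to 43.4, the highest in Hs-578T MEK5DD (43.4) and Hs-578T parental (33.3). The RNA of MAPK7 showed no decrease under the ERK5-ko label. It stood at 16.3 and 17.8 RPKM against 13.3 and 14.3 in parental MDA-MB-231 (adjusted p = 0.0709), and at 17.8 and 18.1 against 13.97 and 15.98 in Hs-578T (adjusted p = 0.0624), so the RNA does not check the label and these groups are called libraries labelled ERK5-ko throughout. The paper states that clones were checked for the knockout by qRT-PCR as well as by Western blot. It reports strongly reduced ERK5 protein by Western blot in the ERK5-ko cells of both lines. The difference between that RNA check and the MAPK7 levels here was not tested. MAP2K5, the gene of MEK5, was 13.6-fold higher in MDA-MB-231 MEK5DD (186 ± 3.31 RPKM, SD, n = 2, against 13.2 ± 0.50, adjusted p = 3.31e-10) and 1.42-fold higher in Hs-578T MEK5DD (22.5 ± 1.81 against 15.8 ± 1.65, adjusted p = 0.00492). Passage labels also separate the groups, with 29 and 30 in MDA-MB-231 parental against 7 to 11 in the engineered cells. In Hs-578T they are 83 and 84 in parental against 8 and 9. By the paper, the ERK5-ko lines were made from cells at higher passages than these ERK5-ko labels, which may therefore count from a later start. Passage and genotype cannot be told apart in any comparison with parental cells. The ERK5-ko cells were also transfected, sorted and grown from single cells, so clone and genotype cannot be told apart either. The mesenchymal marker VIM lay between 1598 and 4067 RPKM in every library. CDH2 and FN1 split the lines, at 0.230 to 0.524 and 36.8 to 77.6 RPKM in MDA-MB-231. In Hs-578T they stood at 135 to 248 and 1847 to 3278. Of the epithelial genes in MDA-MB-231, KRT8 lay at 595 to 1146 RPKM, KRT18 at 328 to 692 and KRT19 at 236 to 776. EPCAM lay at 7.08 to 25.7 there. In Hs-578T, KRT8 lay at 27.9 to 71.0, KRT18 at 141.5 to 596, and KRT19 and EPCAM reached at most 0.395. CDH1 reached at most 1.16 RPKM in either line. ESR1 and PGR reached at most 0.348 RPKM and ERBB2 was at 27.8 to 56.8. The defining leukocyte and endothelial genes PTPRC, CD3E, CDH5 and VWF reached at most 0.396 RPKM. The leukocyte list summed to 23.3 to 108 RPKM with CD68 at 23.2 to 108, and the endothelial list to at most 6.52, with PECAM1 at most 6.48, and CD3E was at 0 in every Hs-578T library.

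Levels between family members depend on the gene length used, and this had to be settled before they could be compared. The lengths in the deposited RPKM equal the mean over all annotated transcripts of a gene, short fragments included, for 9137 of 9137 genes that could be compared. For LOXL2 this is 878 bases, the mean of 15 transcripts, where the longest transcript has 3549 bases, so its level is 4.04 times higher in RPKM than per length of the longest transcript. The factor is 2.5 for LOX, 1.92 for LOXL1, 1.84 for LOXL3 and 1.0 for LOXL4, which has 1 annotated transcript. LOX was not among the genes that could be compared. Its length of 2040 bases is the smallest that gave whole reads, and its read counts, factor and shares on the second scale rest on it. Both scales are given below where members are set against each other. Comparisons of one member between samples do not depend on this choice.

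LOXL2 was the most abundant member in every library on both scales. In parental MDA-MB-231 cells it held 86.9% ± 0.66 (SD, n = 2) of the summed RPKM of the family, and 69.95% ± 1.09 per length of the longest transcript, followed by LOXL4 (6.42% and 20.8%), LOX (5.33% and 6.93%), LOXL1 (1.18% and 1.99%) and LOXL3 (0.185% and 0.326%). In parental Hs-578T cells LOXL2 held 69.1% ± 0.74 and 52.7% ± 0.90, followed by LOXL1 (13.5% and 21.6%), LOXL3 (9.90% and 16.5%) and LOX (7.47% and 9.20%). The order of the members by level was the same on both scales in all 6 groups. The groups differed in their second member, which was LOXL4 in the parental and ERK5-ko pairs of MDA-MB-231, LOX in its MEK5DD pair, LOXL1 in Hs-578T parental and MEK5DD, and LOXL3 in Hs-578T ERK5-ko. The summed family RPKM was 501.2 and 534.9 in parental MDA-MB-231, 628 and 603 in the libraries labelled ERK5-ko, and 264 and 274 in those labelled MEK5DD. The MEK5DD sums were the lowest of the 12 libraries. In Hs-578T the sums were 1912 and 2098 in parental, 1839.6 and 1807 in ERK5-ko, and 1779 and 2015 in MEK5DD libraries, and the ranges of parental and MEK5DD overlapped.

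**Figure D1:**
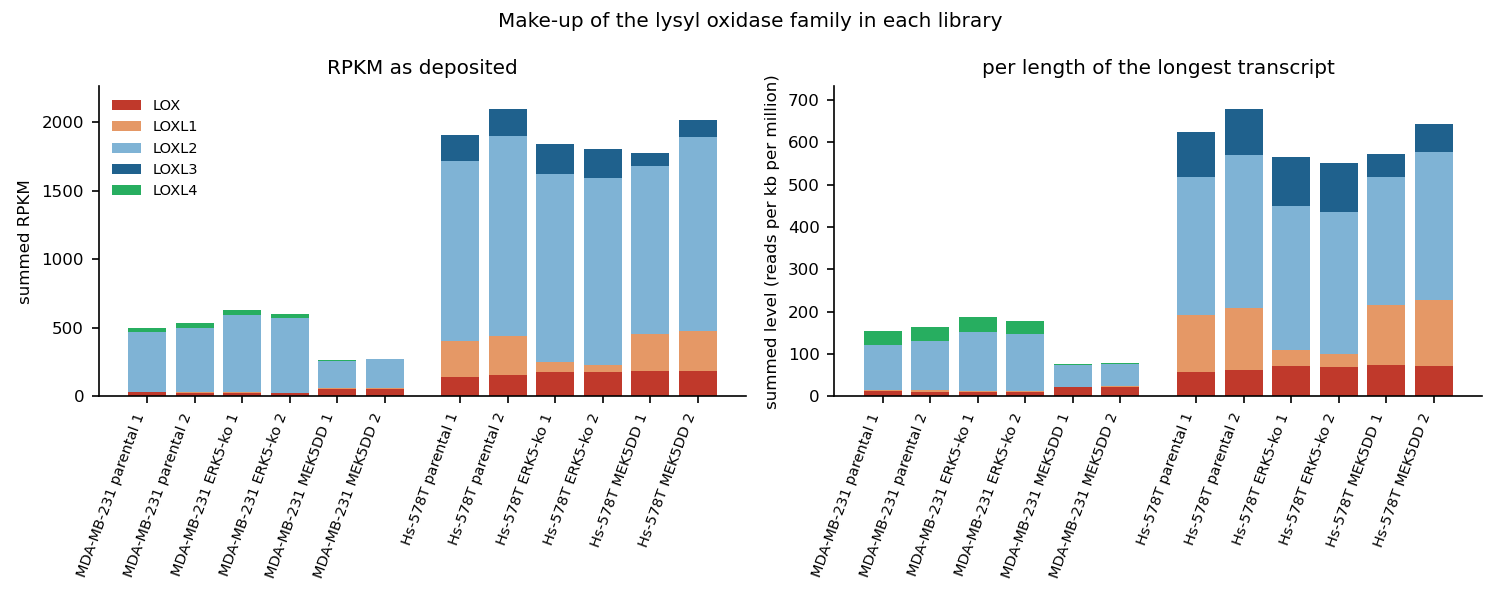
Stacked bars give the summed level of the 5 lysyl oxidases in each of the 12 libraries, as deposited RPKM on the left and scaled by the longest transcript in place of the deposited length on the right. LOXL2 is the largest block in every bar, the 2 MDA-MB-231 MEK5DD bars are the lowest at 264 and 274 RPKM, and the green LOXL4 block is seen in MDA-MB-231 and not in Hs-578T.

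The parental lines were compared first, to show the level from which each member could move. LOX, LOXL1, LOXL2 and LOXL3 were all higher in Hs-578T than in MDA-MB-231, and LOXL4 was detected above the floor only in MDA-MB-231. LOXL3 differed most among the 4 tested members, at 197 and 199.5 RPKM in Hs-578T against 0.894 and 1.02 in MDA-MB-231 (log2 difference, MDA-MB-231 minus Hs-578T, -7.09 ± 0.12 SE, adjusted p = 4.75e-13, n = 2 libraries per group, limma as for every adjusted p here). LOXL1 was 41.0-fold lower in MDA-MB-231 (6.12 ± 0.63 against 270.5 ± 15.1 RPKM, adjusted p = 5.94e-12), LOX was 5.36-fold lower (27.5 ± 1.32 against 149.8 ± 8.82, adjusted p = 2.59e-10) and LOXL2 was 3.08-fold lower (450.2 ± 24.2 against 1387 ± 106, adjusted p = 5.28e-08). Of all genes tested, 77.4% passed in this comparison, against which the 4 of 4 members are to be read. The median gene differed by 0.19 (log2, 6324 higher and 4305 lower), and by -0.02 after median-ratio scaling (5078 and 5349), and the 4 members were lower in MDA-MB-231 under both. LOXL4 had 2971 and 3376 reads in parental MDA-MB-231 and 1 and 0 reads in parental Hs-578T. Against a floor of 3 reads per library, the level in MDA-MB-231 was at least 830-fold higher, a bound that covers counting error only. The 6 Hs-578T libraries held 0 or 1 LOXL4 read each, so no fold is given for LOXL4 in that line.

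**Figure D2:**
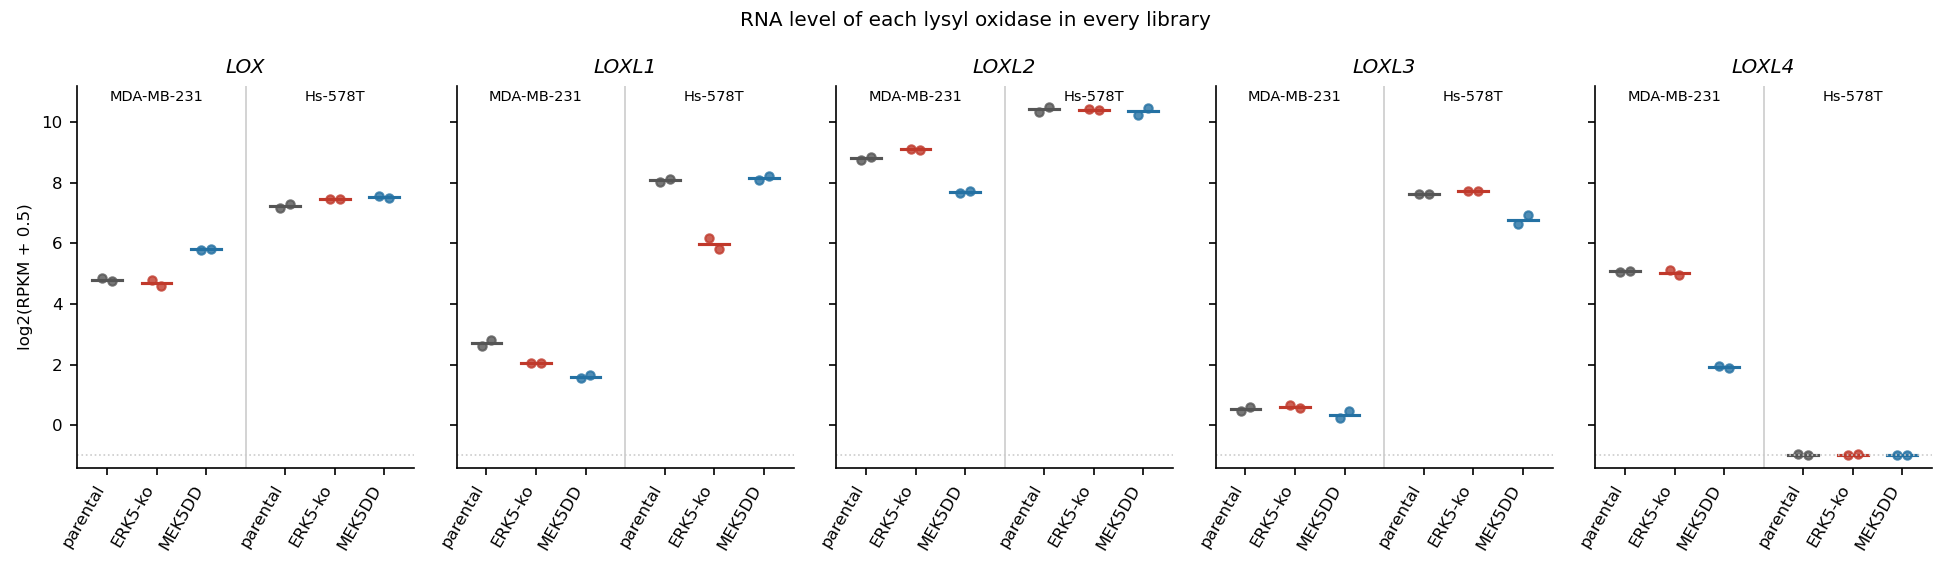
Each panel gives 1 lysyl oxidase, with log2(RPKM + 0.5) on the vertical axis, a point for each library and a line for the mean of the 2 libraries of a group. The dotted line marks 0 RPKM, where the 6 Hs-578T libraries of LOXL4 lie, and the MDA-MB-231 points of LOXL3 lie at 0.678 to 1.07 RPKM against 99.8 to 214 in Hs-578T.

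LOX (chr5:122063195-122078285, minus strand, GRCh38, as in the deposited table) is the founding member, and rose where MEK5DD was expressed in MDA-MB-231. Its level was 28.5 and 26.6 RPKM in parental MDA-MB-231, 27.3 and 23.9 in libraries labelled ERK5-ko, and 54.8 and 55.8 in MEK5DD. The parental and ERK5-ko ranges overlapped, and both MEK5DD libraries lay above all others of the line. The log2 fold change was 0.99 ± 0.089 (SE) for MEK5DD (adjusted p = 4.49e-06) and -0.11 ± 0.089 for ERK5-ko (adjusted p = 0.466). The paper, in contrast, lists LOX as lower in MDA-MB-231 ERK5-ko cells by RNA sequencing and by qRT-PCR, and not lower in Hs-578T. A decrease of LOX in MDA-MB-231 ERK5-ko did not pass here, and the reason for this difference from the paper was not tested. In Hs-578T, LOX stood at 144 and 156 RPKM in parental, 177 and 175 in ERK5-ko and 187 and 182 in MEK5DD libraries, so that both engineered groups lay above the parental pair. The difference was 0.30 ± 0.089 for MEK5DD (adjusted p = 0.0299) and 0.23 ± 0.089 for ERK5-ko (adjusted p = 0.055, and 0.032 when blocked by replicate number). The Hs-578T MEK5DD call was lost without parental replicate 1 (0.24, adjusted p = 0.135), without MEK5DD replicate 1 (0.28, adjusted p = 0.0721) and with only Hs-578T libraries in the fit (adjusted p = 0.119). The ERK5-ko value of this line passed without parental replicate 2 (0.29, adjusted p = 0.0495). The rise with MEK5DD was larger in MDA-MB-231 than in Hs-578T by 0.69 ± 0.13 (adjusted p = 0.00124). In the order of the 6 groups by LOX level, all neighbours differed by more than the sum of their SDs except the parental and ERK5-ko pairs of MDA-MB-231. LOX shares 12376 bases of its span with SRFBP1 on the opposite strand, which lay between 6.92 and 14.4 RPKM.

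LOXL1 (chr15:73925989-73952137, plus strand), the elastic fibre enzyme, was lower in both lines labelled ERK5-ko. In Hs-578T it stood at 259.8 and 281 RPKM in parental, 72.4 and 55.3 in ERK5-ko and 271 and 298 in MEK5DD libraries. The ERK5-ko pair lay apart from the other 4 libraries, which overlapped, and rested on 2751 and 1941 reads against 7952 to 8865. The log2 fold change was -2.09 ± 0.13 for ERK5-ko (adjusted p = 5.1e-07) and 0.07 ± 0.13 for MEK5DD (adjusted p = 0.725). In MDA-MB-231 the gene was low throughout, at 5.67 and 6.56 RPKM in parental, 3.61 and 3.68 in ERK5-ko and 2.41 and 2.64 in MEK5DD libraries, from 84 to 264 reads. The 3 groups did not overlap, and both engineered groups were below parental, by -0.67 ± 0.13 for ERK5-ko (adjusted p = 0.00408) and -1.13 ± 0.13 for MEK5DD (adjusted p = 2.73e-05). The ERK5-ko call in MDA-MB-231 was lost without parental replicate 2 (-0.57, adjusted p = 0.0541). The ERK5-ko effect was smaller in MDA-MB-231 than in Hs-578T by 1.41 ± 0.18 on the log2 scale (adjusted p = 0.000121), and the MEK5DD effect was lower in MDA-MB-231 by -1.20 ± 0.18 (adjusted p = 0.000327). By LOXL1 level, only MEK5DD and parental Hs-578T were neighbours within the sum of their SDs.

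An antisense gene, LOXL1-AS1, overlaps LOXL1 over 2260 bases on the opposite strand, and its levels did not run parallel to LOXL1 in Hs-578T. LOXL1-AS1 stood at 38.6 and 34.2 RPKM in parental Hs-578T and at 35.5 and 35.0 in the libraries labelled ERK5-ko, which lay inside the parental range while LOXL1 was 4.24-fold lower. In Hs-578T MEK5DD it was at 27.1 and 27.9 RPKM, below both other groups, while LOXL1 overlapped with parental. In MDA-MB-231 it was at 9.10 and 7.40 RPKM in parental, 5.90 and 6.06 in ERK5-ko and 1.68 and 2.11 in MEK5DD libraries, which is the same order of groups as LOXL1. The antisense gene is not protein-coding and was not in the fit, so these are levels without a test. The library kit keeps strand, but the strand setting of the counting is not given in the sources used here.

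**Figure D3:**
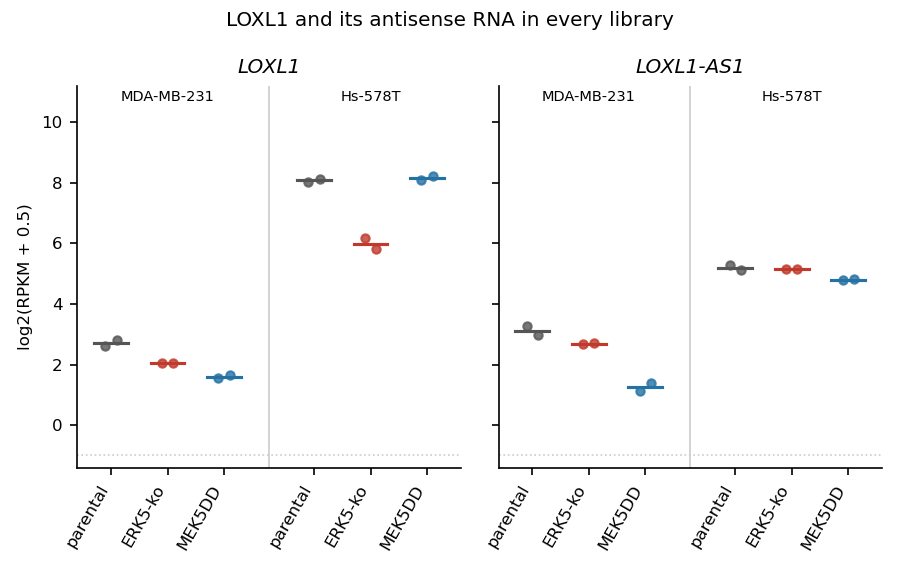
LOXL1 on the left and its antisense gene LOXL1-AS1 on the right are shown as log2(RPKM + 0.5), with a point for each library and a line for the group mean. In Hs-578T the ERK5-ko points of LOXL1 drop to 55.3 and 72.4 RPKM, while those of LOXL1-AS1 stay at 35.0 and 35.5 RPKM between the parental points.

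LOXL2 (chr8:23297189-23425328, minus strand), which cross-links basement membrane collagen, fell with MEK5DD in MDA-MB-231. It was at 433 and 467 RPKM in parental, 562 and 544 in ERK5-ko and 203 and 212 in MEK5DD libraries, and the 3 groups did not overlap. MEK5DD differed from parental by -1.12 ± 0.11 (adjusted p = 7.28e-06). The ERK5-ko libraries were above parental by 0.30 ± 0.11, which did not pass (adjusted p = 0.0778) but did when blocked by replicate number (adjusted p = 0.0357), with only MDA-MB-231 libraries in the fit (adjusted p = 0.0188) and with median-ratio scaling (0.36, adjusted p = 0.0318). In Hs-578T the levels were 1312 and 1462 in parental, 1377 and 1364 in ERK5-ko and 1221 and 1413 in MEK5DD libraries, and all 3 groups overlapped (adjusted p = 0.927 for ERK5-ko and 0.656 for MEK5DD). The MEK5DD effect was lower in MDA-MB-231 than in Hs-578T by -1.04 ± 0.15 (adjusted p = 0.000262). The span of LOXL2 shares 39546 bases with ENTPD4 on the same strand, which lay between 22.2 and 77.6 RPKM.

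LOXL3 (chr2:74532414-74555690, minus strand), a SNAIL partner, fell with MEK5DD in Hs-578T. It was at 197 and 199.5 RPKM in parental, 214 and 213 in ERK5-ko and 99.8 and 121 in MEK5DD libraries. The MEK5DD pair lay below the other 4 libraries, and the difference from parental was -0.84 ± 0.12 (adjusted p = 0.000507), while ERK5-ko differed by 0.11 ± 0.12 (adjusted p = 0.498). In MDA-MB-231 the gene had 31 to 54 reads in a library, at 0.894 and 1.02 RPKM in parental, 1.07 and 0.991 in ERK5-ko and 0.678 and 0.873 in MEK5DD, and neither difference from parental passed (adjusted p = 0.741 and 0.201). A pseudocount of 0.5 shrinks folds at this level. The effect of MEK5DD differed between the lines by 0.65 ± 0.16 (adjusted p = 0.00855), which did not pass in the fit on recovered reads (0.54, adjusted p = 0.149). LOXL3 overlaps DOK1 and HTRA2 on the opposite strand, over 6665 and 935 bases. Both lay between 19.1 and 56.6 RPKM in every library, above LOXL3 in MDA-MB-231 and below it in Hs-578T, and their part in the LOXL3 values was not tested. By level, neighbouring MDA-MB-231 groups were not apart beyond the sum of their SDs. The highest, ERK5-ko (1.03 ± 0.058 RPKM), and the lowest, MEK5DD (0.776 ± 0.14), lay further apart than that sum.

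LOXL4 (chr10:98247690-98268250, minus strand) was the member with the largest change against parental cells. In MDA-MB-231 it was at 33.0 and 33.4 RPKM in parental, 34.0 and 30.6 in ERK5-ko and 3.35 and 3.24 in MEK5DD libraries, from 2783 to 3376 reads in the first 2 groups and 293 and 327 in the last. The parental and ERK5-ko ranges overlapped, and both MEK5DD libraries lay far below every other library of the line. The log2 fold change was -3.15 ± 0.10 for MEK5DD (adjusted p = 1.2e-09) and -0.04 ± 0.10 for ERK5-ko (adjusted p = 0.847). LOXL4 had 20.8% of the family level per length of the longest transcript in parental MDA-MB-231 and 4.19% ± 0.20 with MEK5DD, while LOX went from 6.93% to 28.2% ± 0.34.

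**Figure D4:**
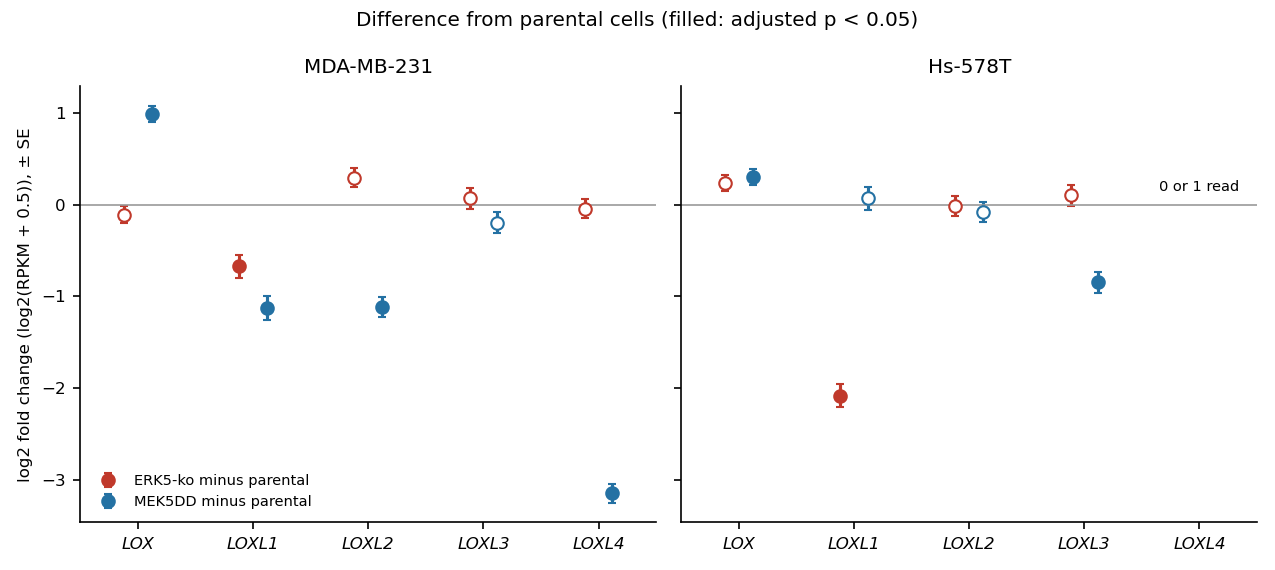
Points are the log2 fold change of ERK5-ko (red) and MEK5DD (blue) against parental cells for each family member, on the log2(RPKM + 0.5) scale with bars of 1 SE, with MDA-MB-231 on the left and Hs-578T on the right. Filled points passed at an adjusted p under 0.05, and the lowest is LOXL4 in MDA-MB-231 MEK5DD at -3.15, with LOXL1 in Hs-578T ERK5-ko at -2.09 as the lowest in the other line.

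The number of members that passed can be read against the share of all genes that did. With ERK5-ko in MDA-MB-231, 1 of 5 members was lower and 0 were higher, where 10.4% and 6.91% of all genes tested were, and 0 of 5 also met the study's fold thresholds (above 1.5 or below 0.5), which 3.87% of all genes did. At an unadjusted p under 0.05, 1 member was higher there and 1 lower, and limma voom on recovered reads gave 0 and 1. With MEK5DD in MDA-MB-231, 3 of 5 were lower and 1 was higher, where 23.8% and 17.5% of all genes were, and 4 of 5 met the fold thresholds against 13.9% of all genes. With ERK5-ko in Hs-578T, 1 of the 4 members above the floor was lower and 0 were higher, where 19.7% of all genes passed in each direction, and 1 of 4 met the fold thresholds against 12.6%. Here too 1 was higher at an unadjusted p under 0.05, and 0 with voom. With MEK5DD in Hs-578T, 1 of 4 was lower and 1 higher, where 17.0% and 6.44% of all genes were, and 0 of 4 met the fold thresholds against 4.38%. Scaling the libraries by median ratios moved the split of all genes from 949 higher and 1430 lower to 1261 and 1127 for ERK5-ko in MDA-MB-231, and from 884 and 2329 to 1290 and 1630 for MEK5DD in Hs-578T. Quantile normalization moved the split for MEK5DD in MDA-MB-231 from 2410 and 3263 to 3162 and 2812. Every member that passed in these 4 comparisons kept its direction under both.

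The engineered groups were also set against each other, since in Hs-578T their passage labels are the same. In MDA-MB-231, LOXL4 was 8.64-fold higher in ERK5-ko than in MEK5DD (adjusted p = 7.06e-10), LOXL2 was 2.67-fold higher (adjusted p = 6.2e-07), LOXL1 was 1.37-fold higher (adjusted p = 0.00924) and LOX was 2.14-fold lower (adjusted p = 1.16e-06). The LOXL1 call was lost without MEK5DD replicate 1 (0.40, adjusted p = 0.0698). LOXL3 was 1.20-fold higher (adjusted p = 0.069, and 0.0465 when blocked by replicate number or without MEK5DD replicate 2). In Hs-578T, LOXL1 was 4.47-fold lower in ERK5-ko than in MEK5DD (adjusted p = 1.95e-07) and LOXL3 was 1.93-fold higher (adjusted p = 4.85e-05), while LOX and LOXL2 did not pass (adjusted p = 0.557 and 0.66). So 4 of 5 members passed in MDA-MB-231, where 55.0% of all genes did, and 2 of 4 in Hs-578T, where 50.0% did (4224 higher and 2642 lower, or 3227 and 3420 with median-ratio scaling). For the difference between the lines, 2 of 4 members passed for ERK5-ko (LOX and LOXL1, with 39.8% of all genes, 2510 higher and 2956 lower, or 3047 and 2528 with median-ratio scaling) and 4 of 4 for MEK5DD (with 39.6% of all genes). The LOX difference for ERK5-ko was -0.34 ± 0.13 (adjusted p = 0.0492). It did not pass without parental replicate 1 (adjusted p = 0.17) or 2 (0.076) or ERK5-ko replicate 2 (0.187) of MDA-MB-231, nor without parental replicate 1 (0.139) or ERK5-ko replicate 1 or 2 (both 0.105) of Hs-578T. These comparisons share libraries with those against parental cells.

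LOX is a textbook hypoxia gene, and ACGTG is the core of the element that the HIF factors bind. The promoters of LOX and LOXL4 are shown because these members went in opposite directions in MDA-MB-231 MEK5DD. Each is the RefSeq sequence on GRCh38.p14, minus strand, 5′ to 3′, up to the gene's end in the deposited table (LOX, chr5:122078286-122078509, and LOXL4, chr10:98268251-98268444), with each ACGTG on either strand in capitals.
LOX: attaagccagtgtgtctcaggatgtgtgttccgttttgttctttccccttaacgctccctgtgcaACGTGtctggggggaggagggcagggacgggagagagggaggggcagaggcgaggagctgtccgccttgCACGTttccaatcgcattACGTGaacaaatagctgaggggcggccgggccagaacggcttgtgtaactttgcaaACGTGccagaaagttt
LOXL4: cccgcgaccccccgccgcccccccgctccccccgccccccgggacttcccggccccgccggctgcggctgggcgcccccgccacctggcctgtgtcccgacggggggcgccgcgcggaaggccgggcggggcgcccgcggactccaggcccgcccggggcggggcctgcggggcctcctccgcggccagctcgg
The LOX sequence holds 4 matches, whose first bases lie at -185, -116, -98 and -42 from the RefSeq start site. Among all 35116 promoters of the table, 18.5% hold at least 1 match in the 250 bases before the start site and 0.669% hold at least 4, counting both strands, where the palindrome of 2 overlapping matches counts as 2. RefSeq gives LOX 2 other start sites, whose windows hold 1 match each, at -68 and -117, and these are not shown. The windows of LOXL1, LOXL3 and LOXL4 hold 0. LOXL2 was not among the members searched, so the matches do not cover the whole family. A match is a run of letters and not a measured binding site.

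Most hypoxia genes went the other way from LOX in MDA-MB-231 MEK5DD. Of 10 listed hypoxia genes, 7 fell and 1 rose there, with a median log2 fold change of -0.72 against -0.01 for all genes tested, and 5 of the 10 met the fold thresholds, where 23.8% of all genes were lower, 17.5% higher and 13.9% met the fold thresholds. CA9, a carbonic anhydrase, fell from 4.56 ± 0.027 to 0.0181 ± 0.026 RPKM (log2 fold change -3.29 ± 0.13, adjusted p = 5.68e-09), and VEGFA, the vascular growth factor, fell from 125 ± 1.71 to 45.7 ± 6.87 RPKM (-1.45 ± 0.10, adjusted p = 4.94e-07). NDRG1, a stress gene, fell by 0.58 (adjusted p = 0.000563). ADM, the vasodilator peptide adrenomedullin, was the 1 listed gene that rose, by 2.54 ± 0.12 (adjusted p = 2.34e-08), in the direction of LOX. With ERK5-ko in MDA-MB-231, CA9 (1.83, adjusted p = 5.68e-06) and NDRG1 (0.45, adjusted p = 0.00915) rose and ADM fell by 1.07 (adjusted p = 0.000163), and the median of the list was 0.14 against -0.04. There, 6.91% of all genes tested were higher and 10.4% lower. In Hs-578T, 2 of 10 rose with ERK5-ko, VEGFA (0.41, adjusted p = 0.00721) and ANKRD37 (1.04, adjusted p = 0.0209), and the list median was -0.05 against 0.01, opposite in sign to the calls. The share that rose was near the 19.7% of all genes that were higher. With MEK5DD, EGLN3 (-0.90, adjusted p = 0.00801) and KDM3A (-0.59, adjusted p = 0.0056) fell and 0 rose, with 1 higher and 4 lower at an unadjusted p under 0.05 and 0 and 2 with voom. The share that fell was near the 17.0% of all genes that were lower, and 6.44% were higher. Both Hs-578T counts rest on single libraries. The first was 0 without ERK5-ko replicate 2 and 1 without ERK5-ko replicate 1 or parental replicate 2, and the second was 1 without parental replicate 1, 4 without parental replicate 2 and 4 when blocked by replicate number.

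**Figure D5:**
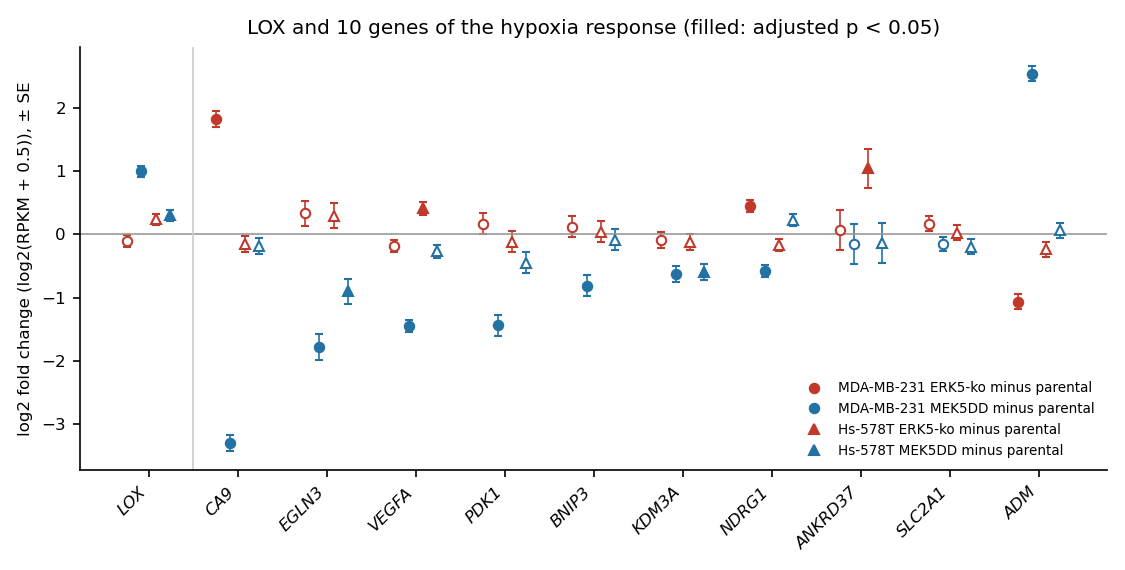
LOX, set apart on the left, and 10 hypoxia genes, ordered by their value in MDA-MB-231 MEK5DD, are shown as log2 fold changes against parental cells on the log2(RPKM + 0.5) scale with bars of 1 SE, in red for ERK5-ko and blue for MEK5DD, with circles for MDA-MB-231 and triangles for Hs-578T. Among the blue circles, LOX at 0.99 and ADM at 2.54 lie above 0 and CA9 is lowest at -3.29.

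Among the fibrillar collagens, substrates of the family, 3 of 7 tested fell with ERK5-ko in Hs-578T. Of 12 listed genes 7 passed the filter on low values, elastin not among them, and COL1A1 stood at 11430 ± 2000 RPKM in parental Hs-578T against 5.90 ± 0.11 in parental MDA-MB-231. With ERK5-ko in Hs-578T, where LOXL1 was lower, 3 of 7 fell and 0 rose, with 4 and 0 at an unadjusted p under 0.05 and with voom, where 19.7% of all genes were lower. These were COL3A1 (-1.18 ± 0.17, adjusted p = 0.000312), COL5A1 (-0.90 ± 0.18, adjusted p = 0.00271) and COL1A1 (-0.88 ± 0.15, adjusted p = 0.000821), and the list median was -0.84 against 0.01 for all genes tested. With MEK5DD in Hs-578T, 6.44% of all genes were higher and 17.0% lower. In Hs-578T MEK5DD, COL1A1 was higher (0.55, adjusted p = 0.0222) and COL5A3 fell (-1.02, adjusted p = 0.00234), a count of 2 calls that became 1 without parental replicate 1 or MEK5DD replicate 2. In MDA-MB-231, 2 of 7 fell with ERK5-ko, COL1A2 (-1.80 ± 0.32, adjusted p = 0.00325) and COL27A1 (-0.90 ± 0.15, adjusted p = 0.00182), and 3 of 7 fell with MEK5DD, COL1A2 (-2.88, adjusted p = 2.74e-05), COL5A1 (-1.60, adjusted p = 3.52e-05) and COL1A1 (-0.82, adjusted p = 0.000985), where 10.4% and 23.8% of all genes were lower. None rose in either comparison in the main limma fit with adjustment or with voom, and COL5A1 alone, with ERK5-ko, was higher at an unadjusted p under 0.05. With ERK5-ko, 1 rose when blocked by replicate number, and 1 with only MDA-MB-231 libraries in the fit. The list medians in MDA-MB-231 were 0 in both comparisons, which is the value of COL5A3, listed at 0 RPKM there. COL3A1 (group means of 0.019 to 0.157 RPKM) and COL5A2 (0.194 to 0.26) also lay under the filter there. These genes entered the fit through Hs-578T.

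Among partners that mature the enzymes or assemble their substrates, 3 went in opposite directions in the 2 lines labelled ERK5-ko. The effect in MDA-MB-231 lay above that in Hs-578T by 0.77 ± 0.13 for BMP1 (adjusted p = 0.00078), 2.37 ± 0.20 for ADAMTS14 (adjusted p = 7.59e-06) and 1.67 ± 0.15 for EFEMP2 (adjusted p = 1.44e-05), where 39.8% of all genes differed between the lines. BMP1, the protease that cuts the LOX proenzyme, was higher in MDA-MB-231 (0.31 ± 0.091, adjusted p = 0.0378) and lower in Hs-578T (-0.46 ± 0.091, adjusted p = 0.00212). ADAMTS14, which cuts procollagen, did the same (0.94, adjusted p = 0.000983, and -1.43, adjusted p = 1.75e-05). In MDA-MB-231, 4 of 14 tested partners rose with ERK5-ko, THBS1 (1.20 ± 0.19, adjusted p = 0.00134) and EFEMP2, an elastic fibre protein that binds LOX (0.74, adjusted p = 0.000949), among them, and 1 fell, FBN1 (-1.12 ± 0.29, adjusted p = 0.0227). In Hs-578T, EFEMP2 fell by 0.93 (adjusted p = 6.19e-05) and FBLN5, the fibulin that binds LOXL1, fell by 1.06 (adjusted p = 0.00086), beside the lower LOXL1. In all, 5 of 14 fell there, PCOLCE, an enhancer of procollagen cleavage, among them (from 766.5 ± 11.1 to 313 ± 37.3 RPKM, adjusted p = 2.63e-05), and 1 was higher, TLL1, a relative of BMP1, at 0.758 against 0.236 RPKM. TLL1 reached the filter of 0.5 RPKM only in these ERK5-ko libraries, so it had to be higher there and its test carries no weight. Of all genes tested, 6.91% were higher with ERK5-ko in MDA-MB-231, and 19.7% were lower and as many higher in Hs-578T. With MEK5DD in MDA-MB-231, THBS1, FBN1, FN1 and PCOLCE2 rose (0.57 to 0.97) and EFEMP2, ADAMTS14, FMOD, BMP1 and PCOLCE fell (-1.61 to -0.42), where 17.5% of all genes were higher and 23.8% lower. FBLN5 also passed there, at 0.424 against 0.133 RPKM, but lay under the filter in every MDA-MB-231 library compared and entered the fit through Hs-578T. With MEK5DD in Hs-578T, ADAMTS14 (1.09), FBN2 (0.71) and POSTN (0.53) rose and PCOLCE2 fell by 1.04, where 6.44% of all genes were higher and 17.0% lower. The 4 list medians lay between -0.10 and 0.21. The MDA-MB-231 counts fell from 5 to 3 without either parental library or ERK5-ko replicate 1, and from 10 to 6 without any 1 of the 4 libraries of the MEK5DD comparison. The Hs-578T MEK5DD count of 4 was 2 with a pseudocount of 0.1. Of 3 copper genes, SLC31A1, the importer of copper, rose in Hs-578T with ERK5-ko (0.49, adjusted p = 0.00137) and with MEK5DD (0.43, adjusted p = 0.00604), and ATOX1, a copper chaperone, rose in MDA-MB-231 MEK5DD (0.75, adjusted p = 0.00175). In these comparisons 19.7%, 6.44% and 17.5% of all genes were higher, in that order. In MDA-MB-231 0 of 3 copper genes passed with ERK5-ko in limma, 0 at an unadjusted p under 0.05 and 0 with voom. There, 6.91% of all genes were higher and 10.4% lower. The Hs-578T count for ERK5-ko was 2 without parental replicate 2 and 2 when blocked by replicate number.

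Among 18 tested enzymes and chaperones that modify collagen, more fell than rose in each of the 4 comparisons, more of all genes tested were also lower than higher in 3 of them, and for ERK5-ko in MDA-MB-231 the balance turned with the scaling. Of these, 11 fell and 1 rose with MEK5DD in MDA-MB-231 (median -0.40, with 23.8% and 17.5% of all genes), 10 fell and 2 rose with ERK5-ko in Hs-578T (median -0.30, with 19.7% of all genes in each direction), and 7 fell and 2 rose (P4HA1 and P4HA2) with MEK5DD in Hs-578T (median -0.09 against -0.08 for all genes tested, of which 17.0% were lower and 6.44% higher). PLOD2, the lysyl hydroxylase of collagen telopeptides, rose with MEK5DD in MDA-MB-231 (from 26.0 ± 1.16 to 46.5 ± 1.74 RPKM, adjusted p = 0.000204) and with ERK5-ko in Hs-578T (0.44, adjusted p = 0.014), and fell with MEK5DD in Hs-578T (-0.67, adjusted p = 0.00255). P3H2, a prolyl hydroxylase, rose in Hs-578T with ERK5-ko (0.71, adjusted p = 8.19e-05) and fell with MEK5DD (-1.29, adjusted p = 5.31e-06). TGM2, a transglutaminase that cross-links matrix by another route, fell in all 4 comparisons, most in Hs-578T with ERK5-ko (from 18.9 ± 1.57 to 3.12 ± 0.52 RPKM, adjusted p = 2.93e-08) and by 0.69 in MDA-MB-231 with ERK5-ko (adjusted p = 0.00101). P4HA3, a prolyl hydroxylase subunit, fell with ERK5-ko in Hs-578T (-1.13, adjusted p = 4.45e-05) and also passed in MDA-MB-231 (-0.40, adjusted p = 0.0474), where it lay under the filter of 0.5 RPKM in every library compared (0.153 against 0.364) and entered the fit through Hs-578T. The same holds for FKBP10, 1 of the 11 that passed as lower with MEK5DD in MDA-MB-231. For ERK5-ko in MDA-MB-231, 10.4% of all genes tested were lower and 6.91% higher. Of the list, 4 passed as lower, TGM2, CRTAP (-0.38, adjusted p = 0.00895), P3H1 (-0.33, adjusted p = 0.0213) and the low P4HA3, and 1 rose, P3H4 (0.62, adjusted p = 0.006). The split turned to 2 lower and 3 higher with median-ratio scaling and 3 lower and 4 higher with quantile normalization. That count of 5 fell to 2 without parental replicate 1 or ERK5-ko replicate 1 and to 1 without parental replicate 2 or ERK5-ko replicate 2. The Hs-578T counts fell from 12 to 7 without ERK5-ko replicate 2, and from 9 to 4 without parental replicate 2.

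The SNAIL list, of interest because LOXL2 and LOXL3 bind SNAIL, held 5 genes. Its calls are to be read against all genes tested. With ERK5-ko, 19.7% of these were higher and as many lower in Hs-578T. In MDA-MB-231, 6.91% were higher and 10.4% lower with ERK5-ko, and 17.5% higher and 23.8% lower with MEK5DD. With MEK5DD in Hs-578T, 6.44% were higher and 17.0% lower. With ERK5-ko in Hs-578T, CDH1, the E-cadherin gene, was at 1.04 ± 0.16 RPKM against 0.168 ± 0.070 in parental (adjusted p = 3.45e-05), ZEB1 was higher (0.38, adjusted p = 0.0334) and TWIST1 was lower (-1.16, adjusted p = 3.78e-05). In MDA-MB-231, ZEB1 was lower with ERK5-ko (-0.55, adjusted p = 0.0124), a call lost without either parental library or ERK5-ko replicate 2, and CDH1 was at 0.610 ± 0.043 against 0.645 ± 0.0074 RPKM (adjusted p = 0.872). With MEK5DD in MDA-MB-231, ZEB1 (0.46, adjusted p = 0.0117) and SNAI1 (0.57, adjusted p = 0.0113) rose, SNAI2 fell by 0.48 (adjusted p = 0.000918), and CDH1 fell from 0.645 to 0.0188 ± 0.027 RPKM (adjusted p = 2.95e-05). Without parental replicate 2 that count of 4 was 2. With MEK5DD in Hs-578T, ZEB1 rose (0.42, adjusted p = 0.034) and SNAI2 fell by 0.37 (adjusted p = 0.0108). Of these 2 calls, 0 passed without parental replicate 1 and 1 without MEK5DD replicate 2. Beside these, LOXL3 RNA was 0.11 ± 0.12 from parental in Hs-578T ERK5-ko, where CDH1 rose, and LOXL2 RNA fell 2.17-fold in MDA-MB-231 MEK5DD, where CDH1 fell.

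Across the 12 libraries the genes whose log2 levels ran most like each member were first picked with the difference between the lines left in. They were WNT5A, RDH10 and ATF4 for LOX (Pearson r of 0.994 to 0.996), THNSL2, PIK3R2 and DUSP15 for LOXL1 (0.994 to 0.995), ARHGEF25, COL6A1 and SLC4A3 for LOXL2 (0.994 to 0.996), DLX1, GNAZ and COL5A3 for LOXL3 (0.999 to 1.0) and ARHGEF4, CLIC6 and CCDC68 for LOXL4 (0.999 to 1.0). After each line was centred on its own mean, the 3 closest genes were HAS2, FAM196B and WNT5A for LOX (0.987 to 0.99), PARP3, ZCCHC24 and ATP2A3 for LOXL1 (0.966 to 0.981), RARG, CDH11 and FAM83H for LOXL2 (0.992 to 0.997), NTRK2, TMEM189-UBE2V1 and F2RL2 for LOXL3 (0.969 to 0.975) and ARHGEF4, PRSS22 and CLIC6 for LOXL4 (0.997 for each). HAS2 makes hyaluronan, a matrix polysaccharide. These are descriptions over 12 libraries that share groups and lines, picked as the highest of 13737 genes, and carry no test.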

How the data were processed

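RNA of 12 libraries was sequenced by the authors from MDA-MB-231 and Hs-578T cells, with 2 libraries per group, and grouped here by line and label. The authors deposited RPKM values per gene. Their notes name bcl2fastq, Trimmomatic 0.32, TopHat2 2.1.1 and R 3.3.1 with GRCh38, while the counting tool and the annotation are not given in the sources used here. All 12 columns were matched to a sample.

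Whole reads and library totals (20248162 to 27791195) were recovered from the RPKM steps. Of 17666 rows, 17666 (100.0%) came out whole within 0.0001 reads, as did 0 of 200 control genes with totals 1% off. Gene lengths were compared with GENCODE 29 where all libraries had at least 20 reads. Levels at or under 3 reads in every library of a group were treated as the floor. Depth limits LOXL3 in MDA-MB-231 and LOXL4 in Hs-578T, and counting floors cover counting error only.

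Protein-coding genes with RPKM of at least 0.5 in 2 libraries (13737) were fitted as log2(RPKM + 0.5) with limma 3.58.1 (R 4.3.3). Each of the 6 groups had its own mean, the 12 libraries left 6 degrees of freedom for the spread, the variance followed a trend with level, and p-values were adjusted by Benjamini-Hochberg within each comparison. This fold understates changes of low genes. The fit and the recovery were tested on simulated data. Replicates are separate passages of a culture, so p-values measure the spread between these samples. Same-numbered replicates deviated together (correlations of 0.107 to 0.541 over the 6 pairs of groups within lines). A fit with the replicate number as a block is therefore given where it changes the call of a family member. For the gene lists it is given for some of the counts that it changes, and not for all.

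Members and gene lists were chosen with earlier results of these data known. Named list genes are the 2 largest and 2 smallest passing changes for ERK5-ko in each line. ATOX1, EGLN3, KDM3A, COL5A3, EFEMP2, FBLN5, FN1, PCOLCE2, FMOD, FBN2, POSTN, CRTAP, FKBP10, P4HA1, P4HA2, SNAI1 and SNAI2 fall outside that rule and were named after their values were seen. Alternatives were other pseudocounts, filters, scalings, limma voom on the recovered reads, fits of one line, the block and each library left out. Promoter sequences are from RefSeq, with entries for 4 of the members used, LOXL2 not among them. Python 3.11.15, numpy 2.4.6, pandas 2.3.3 and matplotlib 3.10.9 made the tables and plots. Protein sequences, qRT-PCR, protein and mouse experiments were not analysed here.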

Additional observations from a re-analysis of the deposited data

Results flagged for a closer look

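A difference between the lines in the response of a lysyl oxidase passed a test of that difference in 6 instances, each given as the MDA-MB-231 value minus the Hs-578T value on the log2 scale (limma, contrast of contrasts). For MEK5DD these were all 4 members above the floor in both lines. LOX differed by 0.69 (adjusted p = 0.00124), from log2 fold changes of 0.99 (MDA-MB-231) and 0.30 (Hs-578T). LOXL1 differed by -1.20 (adjusted p = 0.000327), with -1.13 and 0.07. LOXL2 differed by -1.04 (adjusted p = 0.000262), with -1.12 and -0.08. LOXL3 differed by 0.65 (adjusted p = 0.00855), with -0.20 and -0.84, and its level in MDA-MB-231 rests on 31 to 54 reads. For ERK5-ko, LOXL1 differed by 1.41 (adjusted p = 0.000121), with -0.67 and -2.09, and LOX by -0.34 (adjusted p = 0.0492), with -0.11 and 0.23. MAP2K5 RNA was 13.6-fold above parental in MDA-MB-231 MEK5DD and 1.42-fold in Hs-578T MEK5DD, and its part in these differences was not tested. LOXL4 was at 0 or 1 read in Hs-578T and was not compared between the lines.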

How the results depend on the processing

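Of 39 values tested for single members, 25 kept direction and side of the threshold in every alternative. Over all 527 alternatives 486 did, 17 lost the call, 11 gained it and 13 changed sign, none of the last for a value past the test, and the cause was not tested. Depth limits LOXL3 in MDA-MB-231 and LOXL4 in Hs-578T.

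With median-ratio scaling, the LOX difference between the lines for ERK5-ko was -0.25 (adjusted p = 0.131) and lost its call, while LOXL2 gained one for that difference (0.41, adjusted p = 0.0432) and for ERK5-ko in MDA-MB-231 (0.36), as did LOXL3 in MDA-MB-231 ERK5-ko minus MEK5DD (0.28, adjusted p = 0.0449). The sign turned for LOXL2 in Hs-578T ERK5-ko minus MEK5DD (-0.058) and MEK5DD minus parental (0.015), for the LOXL3 difference between the lines for ERK5-ko (0.035) and for LOXL4 with ERK5-ko in MDA-MB-231 (0.025). With quantile normalization, the LOX difference (-0.29, adjusted p = 0.0795) and LOXL1 in MDA-MB-231 ERK5-ko minus MEK5DD (0.34, adjusted p = 0.059) lost their calls, and LOXL2 with ERK5-ko in Hs-578T (0.037) and the LOXL3 difference (0.042) turned. With voom on recovered reads, the LOX difference (-0.34, adjusted p = 0.0557), LOXL1 ERK5-ko minus MEK5DD (0.53, adjusted p = 0.0527) and the LOXL3 difference for MEK5DD (0.54, adjusted p = 0.149) lost theirs. With no filter, LOX in Hs-578T ERK5-ko passed (0.23, adjusted p = 0.0485), and with a pseudocount of 0.1 LOXL3 ERK5-ko minus MEK5DD did (0.38, adjusted p = 0.0308). In fits of one line, LOX with MEK5DD in Hs-578T (0.30) lost its call and LOXL2 with ERK5-ko in MDA-MB-231 (0.30) gained one.

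The replicate block gave calls to LOX with ERK5-ko in Hs-578T (0.23), LOXL2 with ERK5-ko in MDA-MB-231 (0.30) and LOXL3 in MDA-MB-231 ERK5-ko minus MEK5DD (0.27), and changed no other call of a member.

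Leaving out 1 library at a time, LOX ranged from -0.43 to -0.25 for the ERK5-ko difference between the lines, from 0.17 to 0.29 with ERK5-ko and from 0.24 to 0.36 with MEK5DD in Hs-578T. LOXL1 in MDA-MB-231 ranged from -0.77 to -0.57 with ERK5-ko and from 0.40 to 0.51 for ERK5-ko minus MEK5DD. LOXL2 in Hs-578T ranged from -0.093 to 0.063 with ERK5-ko, -0.18 to 0.029 with MEK5DD and -0.044 to 0.17 between them. LOXL3 ranged from -0.098 to 0.029 for the ERK5-ko difference and 0.16 to 0.38 for ERK5-ko minus MEK5DD in MDA-MB-231, and LOXL4 with ERK5-ko from -0.11 to 0.034. Of 336 alternatives for the 24 list counts, 57 moved the count by over 1.5 times. In fits of one line, counts with MEK5DD in Hs-578T fell from 9 to 2 for the collagen-modifying enzymes, from 4 to 2 for the partners and from 2 to 0 for the collagens, hypoxia and SNAIL lists.

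Counts over all genes moved by over 1.5 times in fits of one line, to 1596 higher and 2469 lower for ERK5-ko in MDA-MB-231 (from 949 and 1430), to 1431 and 1612 for ERK5-ko (from 2706 and 2707), 267 and 633 for MEK5DD (from 884 and 2329) and 2689 and 1770 for ERK5-ko minus MEK5DD (from 4224 and 2642) in Hs-578T. Without 1 library, MEK5DD in MDA-MB-231 ranged over 1509 to 1623 higher and 2400 to 2446 lower (from 2410 and 3263), ERK5-ko in MDA-MB-231 over 387 to 489 higher and 603 to 777 lower, and ERK5-ko in Hs-578T was 1467 and 1690 without ERK5-ko replicate 2.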
